A study of Rattus norvegicus with 8 samples.

Results

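The 35 genes described here run mitosis: they switch on the mitotic kinases, condense the chromosomes, hold them on the spindle, release them and divide the cell. They were followed in the ventral prostate of TRAP rats, a transgenic line that develops adenocarcinoma of the prostate, with and without telmisartan, a drug against high blood pressure that blocks the type 1 receptor of angiotensin II. Members were chosen by gene name: a probe counted if its name in the array design was that of a member or its older alias (Cdc2 or Cdc2a for Cdk1, Stk6 for Aurka, Kntc2 for Ndc80). Of these probes, those with a Cy5 signal well above background on at least 4 of the 8 arrays were kept. By this rule 31 of the 35 genes had a probe, and all 31 passed, among 23208 genes tested in all. They had 44 probes, of which 43 passed; the probe left out was the third probe of Bub1b, well above background on 2 arrays. The other 4 genes had no probe under the names of the rule: Cenpa, Cks2, Spc25 and Nek2.

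Each array held 1 rat. Control 102, 103, 104 and 106 were untreated TRAP rats on basal diet and tap water, and Telmisartan 302, 303, 305 and 306 were TRAP rats given telmisartan at 10 mg/kg per day in their drinking water over 12 weeks, starting at 3 weeks of age. The dose comes from the series text, since the label of the treated rats names more than 1 dose. All 8 were males of the SD strain, 15 weeks old and, per the series text, heterozygous for the transgene. In this line the SV40 T antigen is driven by the probasin promoter, which is active in prostate epithelium, and rats of both groups carry it; its level was not compared here. RNA of the TRAP prostate was labelled with Cy5, and RNA of the normal ventral prostate of male F344 rats at 6 weeks of age with Cy3, as the reference on every array. Dyes were never swapped. Values below are log2 ratios of Cy5 over Cy3, so 0 means equal to the reference and 1 means 2-fold above it.

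Cells prepare for mitosis late in the cell cycle, when the transcription factors FOXM1 and B-MYB, working with the MuvB complex, switch on a shared set of genes. Cyclins A and B then activate the kinase CDK1, Aurora and Polo kinases build the spindle, and the checkpoint proteins BUB1, BUBR1 and TTK hold the cell until every chromosome is attached. CDC20 and the anaphase-promoting complex end the hold by marking cyclin B for destruction. Messages of these genes are scarce in resting cells, which is why MKI67 and TOP2A serve as markers of dividing cells in tumours. The SV40 T antigen binds the retinoblastoma protein, which otherwise restrains this programme.

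Promoters of such genes are known for a pair of short elements, the CHR, which MuvB binds, and the CCAAT box, which NF-Y binds. RefSeq promoter windows (build GRCr8, 300 bases, from 250 before the start of the gene to 50 after it) were on hand for 24 of the 31 members. The windows of Ccna2, Aurkb, Ube2c, Foxm1, Tpx2, Racgap1 and Pbk were not used here. The 6 stretches below, each the 150 bases before the start written 5′ to 3′ on the strand of the gene, show the arrangement in cyclins and their partners and in the pair of members with the lowest measured ratios, Hmmr and Cenpf (that of Cenpf is a lower bound). Capitals mark the CHR, searched as TTTGAA, and the CCAAT box, searched as CCAAT, on either strand; on the opposite strand they read TTCAAA and ATTGG. The stretches lie at chr2:33655226-33655375 (Ccnb1, minus strand), chr8:79981659-79981808 (Ccnb2, minus), chr20:19265143-19265292 (Cdk1, plus), chr5:137255800-137255949 (Cdc20, minus), chr10:25665216-25665365 (Hmmr, minus) and chr13:103760887-103761036 (Cenpf, minus).
Ccnb1: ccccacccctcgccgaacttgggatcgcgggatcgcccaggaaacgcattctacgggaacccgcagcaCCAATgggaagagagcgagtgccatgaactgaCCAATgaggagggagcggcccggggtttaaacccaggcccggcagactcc
Ccnb2: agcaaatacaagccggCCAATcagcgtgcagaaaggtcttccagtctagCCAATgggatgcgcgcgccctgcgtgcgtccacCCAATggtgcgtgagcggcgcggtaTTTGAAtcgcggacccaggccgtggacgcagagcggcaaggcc
Cdk1: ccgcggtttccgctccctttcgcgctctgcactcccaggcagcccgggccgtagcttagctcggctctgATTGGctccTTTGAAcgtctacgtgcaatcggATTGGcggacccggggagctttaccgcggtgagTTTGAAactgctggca
Cdc20: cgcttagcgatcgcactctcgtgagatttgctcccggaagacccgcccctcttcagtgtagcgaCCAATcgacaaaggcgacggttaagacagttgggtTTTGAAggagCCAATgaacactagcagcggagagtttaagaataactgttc
Hmmr: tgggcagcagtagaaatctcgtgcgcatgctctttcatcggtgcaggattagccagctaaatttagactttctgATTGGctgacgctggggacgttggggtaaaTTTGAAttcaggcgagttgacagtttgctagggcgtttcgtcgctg
Cenpf: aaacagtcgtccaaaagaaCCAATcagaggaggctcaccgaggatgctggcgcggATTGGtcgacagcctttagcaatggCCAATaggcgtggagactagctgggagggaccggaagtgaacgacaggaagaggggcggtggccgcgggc

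In Ccnb1 the starts of the neighbouring CCAAT boxes were 32 bases apart, and its window held no TTTGAA, the only form of the CHR that was searched. Ccnb2 carried 3 boxes with 33 bases between each start and the next. Cdk1 carried a pair 32 bases apart with a CHR between them and another CHR nearer the start. Cdc20 had a pair 45 bases apart with a CHR just before the second. A CHR lay in the window of 18 of 24 members (75%), against 18.3% of all 33469 promoter windows of the same length, and at least 1 CCAAT box in 19 (79.2% against 37.5%). Both elements lay in 16 members (66.7% against 7.41%), and 2 or more CCAAT boxes in 14 (58.3% against 11.2%). Of 29 genes of DNA replication with a window, 3 held a CHR (10.3%), 18 a CCAAT box (62.1%) and 1 both. Over the 5 further lists of mitotic genes and their regulators, a CHR lay in 34.8% to 58.8% of the windows of a list, a CCAAT box in 41.7% to 69.6% and both in 13% to 41.2%. The windows of Hmmr and Cenpf held both elements too, but the CHR of Cenpf began at base 3 after the start, outside the stretch shown. A match describes the letters in the window and was not tested as a binding site.

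Almost all members stood far above the normal F344 prostate in every TRAP rat. The median member was at 2.90 in control rats and 2.93 in treated rats, while the median of all genes tested was at 0.06 in control rats. The level of the median member in control rats moved with the processing, to 3.71 in the log ratios of the scanner software and 4.09 after median centring, where the median of all genes was at 0.10 and 0.67; the fold values below hold for the loess ratios alone. In all 4 control rats 29 of 31 members were above 2-fold, against 5.19% of all genes, and in all 8 rats 28 were, against 3.73%. Above 4-fold in all 4 control rats were 26 members (1.3% of all genes), and above 8-fold 14 (0.366%). These ratios carry no test, because transgene, strain, age and dye differ at once between the channels. Skeletal muscle markers were low against the reference, with a median of -4.20 over 8 genes in control rats. In bulk tissue, fewer cells of a type and less RNA per cell cannot be told apart. Of 8 prostate secretory genes, 7 were below the reference in all 8 rats and 1, Azgp1, was above it at 3.92 ± 0.26 in control rats (SD, n = 4); the median was -5.51. The secretory gene Sbp, well above background in Cy5 on all 8 arrays, had a control mean of -4.21 ± 0.09 and a treated mean of -3.91 ± 0.14 (SD, n = 4 each).

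**Figure D1:**
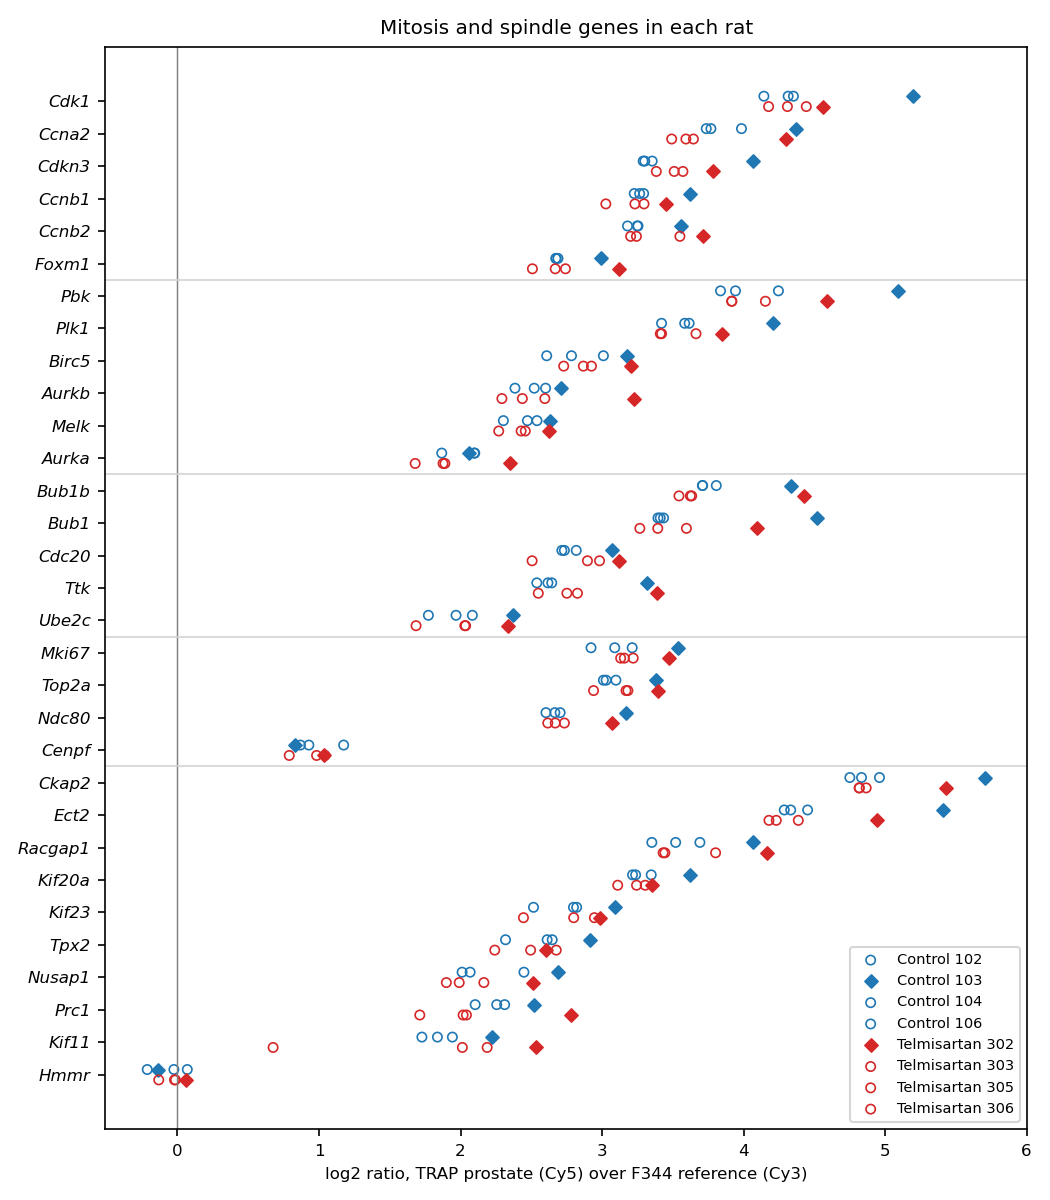
Log2 ratio of the TRAP prostate over the F344 reference (x axis) for each of the 31 members (y axis), 1 point per rat, in blocks by role. Blue points are control rats and red points treated rats; filled diamonds are Control 103 and Telmisartan 302. All but Hmmr and Cenpf are above 1 in every control rat, the blue and red points overlap for every member, and the filled diamonds are the rightmost points for most members.

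The 6 members of the CDK1 engine were above 2-fold in all 8 rats. Cdk1, the kinase that drives entry into mitosis, measured 4.14, 5.20, 4.32 and 4.35 in Control 102, 103, 104 and 106 and 4.56, 4.31, 4.18 and 4.44 in Telmisartan 302, 303, 305 and 306. The highest value was that of Control 103, and the other 7 rats lay within 4.14 to 4.56. Its mean of 4.50 ± 0.47 in control rats (SD, n = 4) is a 22.7-fold ratio over the reference. Ccna2, cyclin A2, measured 3.77, 4.37, 3.99 and 3.74 in the control rats and 4.30, 3.49, 3.59 and 3.65 in the treated rats, in the same order. Again Control 103 was highest and Telmisartan 302 next, with the other 6 below 4. Ccnb1, cyclin B1, measured 3.27, 3.63, 3.23 and 3.29 in control and 3.45, 3.03, 3.30 and 3.23 in treated rats, and Telmisartan 303 was lowest. Ccnb2, cyclin B2, measured 3.25, 3.56, 3.25 and 3.18 in control and 3.71, 3.20, 3.24 and 3.55 in treated rats; here Telmisartan 302 and 306 sat at the top with Control 103. Foxm1, the transcription factor of the programme, measured 2.68, 2.99, 2.69 and 2.67 in control and 3.12, 2.51, 2.67 and 2.74 in treated rats, with group means of 2.76 ± 0.16 and 2.76 ± 0.26 (SD, n = 4 each). Cdkn3, a phosphatase that acts on CDK1 and CDK2, averaged 3.50 ± 0.38 and 3.56 ± 0.17.

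Among the mitotic kinases and their partners, Pbk, a mitotic kinase also called TOPK, had the highest measured ratio. It was at 3.84, 5.09, 4.25 and 3.94 in control and 4.59, 3.92, 3.92 and 4.15 in treated rats, with Control 103 highest and Telmisartan 302 next. Plk1, the Polo kinase of spindle assembly and mitotic entry, measured 3.62, 4.21, 3.58 and 3.42 in control and 3.85, 3.42, 3.41 and 3.66 in treated rats. A second probe of Plk1, well above background in both channels on all 8 arrays, averaged 2.75 ± 0.21 in control and 2.67 ± 0.10 in treated rats. The measured ratios of the Aurora kinases were lower. Aurka, which acts at the spindle poles, measured 1.87, 2.06, 2.10 and 2.10 in control and 2.35, 1.68, 1.89 and 1.88 in treated rats, and Telmisartan 302 and 303 marked its highest and lowest values. Aurkb, which corrects faulty attachments, measured 2.38, 2.71, 2.52 and 2.60 in control and 3.23, 2.29, 2.44 and 2.60 in treated rats; no rat but Telmisartan 302 was above 2.71. Its reference spot was well above background on 3 of the 8 arrays. Birc5, the survivin subunit of the Aurora B complex, averaged 2.89 ± 0.25 and 2.93 ± 0.20, and Melk 2.49 ± 0.14 and 2.45 ± 0.15 (SD, n = 4 each).

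Of the checkpoint kinase genes, Bub1 had a wide range over the 8 rats, 1.25, against 0.88 for Bub1b and 0.85 for Ttk. The median range over the members was 0.68, and members of other groups, such as Pbk and Ect2, ranged as widely as Bub1. Bub1 averaged 3.69 ± 0.55 in control rats, where Control 103 was at 4.52 and the other 3 within 3.40 to 3.43. In treated rats it averaged 3.59 ± 0.36. Bub1b, which encodes BUBR1, averaged 3.89 ± 0.30 and 3.81 ± 0.42 (SD, n = 4 each). Ttk, also called MPS1, measured 2.64, 3.32, 2.62 and 2.54 in control and 3.39, 2.75, 2.55 and 2.83 in treated rats; Control 103 and Telmisartan 302 were both above 3.3 and no other rat passed 2.83. Cdc20, the activator of the anaphase-promoting complex, averaged 2.83 ± 0.16 and 2.88 ± 0.26. Ube2c, the ubiquitin-conjugating enzyme of the same complex, averaged 2.05 ± 0.25 and 2.02 ± 0.27.

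On the chromosomes, Mki67, the proliferation marker Ki-67 that coats mitotic chromosomes, measured 3.21, 3.54, 2.92 and 3.09 in control and 3.48, 3.16, 3.13 and 3.22 in treated rats. Its reference spot was well above background on 3 control arrays and on no treated array, so in treated rats the ratio is a bound of at least 9.49-fold. Top2a, which untangles DNA before segregation, measured 3.01, 3.38, 3.10 and 3.03 in control and 3.39, 2.94, 3.18 and 3.17 in treated rats, a narrow spread with the same pair of rats on top. Ndc80, the kinetochore protein that grips microtubules, averaged 2.79 ± 0.26 and 2.77 ± 0.21 (SD, n = 4 each). Cenpf, a large protein of the outer kinetochore, measured 0.87, 0.83, 0.93 and 1.17 in control and 1.03, 0.79, 1.04 and 0.98 in treated rats. Its reference spot was not well above background on any array, so the control mean stands for a ratio of at least 1.93-fold and its place among the members is not known. In such cases a bound sets the mean Cy5 signal against the higher of the dim Cy3 signal and the lowest Cy3 signal that is well above background on each array.

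The spindle and cytokinesis group held both the highest and the lowest measured ratios. Ckap2, a spindle microtubule protein, measured 4.83, 5.71, 4.96 and 4.75 in control and 5.43, 4.82, 4.82 and 4.87 in treated rats, and its control mean of 5.06 ± 0.44 is a 33.4-fold ratio. Ect2, which switches on RhoA at the division furrow, measured 4.33, 5.41, 4.45 and 4.29 in control and 4.94, 4.23, 4.18 and 4.39 in treated rats, 24.6-fold in control rats. Racgap1 and Kif23, partners in the centralspindlin complex that positions that furrow, averaged 3.66 ± 0.31 and 2.81 ± 0.24 in control and 3.71 ± 0.35 and 2.79 ± 0.25 in treated rats. All 4 were above 2-fold in every rat. The second probe of Ect2 averaged 1.67 ± 0.47 in control rats (SD, n = 4), over a reference spot that was not well above background on any array. Kif20a, a kinesin of the midzone, measured 3.24, 3.62, 3.35 and 3.22 in control and 3.35, 3.11, 3.30 and 3.24 in treated rats. Tpx2, an activator of Aurora A, measured 2.32, 2.91, 2.65 and 2.61 in control and 2.60, 2.24, 2.50 and 2.68 in treated rats. Nusap1, which bundles spindle microtubules, measured 2.01, 2.69, 2.45 and 2.07 in control and 2.51, 1.99, 1.90 and 2.16 in treated rats. Apart from Telmisartan 302, the treated rats reached at most 2.16 for Nusap1. The reference spots of Tpx2, Nusap1 and Prc1, a microtubule bundler of the midzone, were not well above background on any array. Their control ratios are therefore at least 6.16-fold, 4.94-fold and 4.91-fold.

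Kif11, the motor that separates the spindle poles, measured 1.84, 2.22, 1.94 and 1.73 in control rats and 2.54, 2.19, 2.01 and 0.68 in treated rats. Telmisartan 306 lay far below the others, and there its Cy5 spot was not well above background; the other 30 members passed that mark on all 8 arrays. Its reference spot never passed it, which makes the control ratio at least 3.82-fold. A second probe of Kif11 gave 0.35, 0.42, 0.68 and 0.24 in control rats and 0.61, 0.80, 0.49 and 0.91 in treated rats, with Telmisartan 306 highest, so the probes disagree. Under other ways of processing, the treated minus control difference of Kif11 ran from -1.19 to 1.12. Hmmr, which encodes a spindle-associated hyaluronan receptor, measured -0.21, -0.14, 0.07 and -0.03 in control and 0.06, -0.02, -0.13 and -0.01 in treated rats and did not stand above the reference. Its second probe gave 1.40, 2.00, 1.77 and 1.52 in control and 1.39, 1.29, 1.80 and 1.62 in treated rats, over a reference spot that was not well above background on any array. The value of Hmmr therefore turns on the probe. Its probe with the higher mean signal was used, as for every gene.

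The 3 members found under other names in the array design were above 2-fold in all 8 rats too. The probe of Cenpa, the histone variant of the centromere, averaged 2.86 ± 0.17 in control and 2.84 ± 0.37 in treated rats. Its reference spot was not well above background on any array, so these are bounds of at least 7.26-fold and 7.16-fold. Cks2, a CDK1 subunit, averaged 3.99 ± 0.37 and 3.87 ± 0.17, and Spc25, a partner of NDC80, 3.55 ± 0.22 and 3.42 ± 0.25 (SD, n = 4 each). They are outside the counts given here.

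Treated rats were set against control rats to ask whether the drug changed this programme in the tumour-bearing gland. No member differed beyond the spread between rats. In limma, 0 of 31 members passed an adjusted p of 0.05, and 0 of all 23208 genes did (0%). At an unadjusted p under 0.05 there were 0 members, against 1118 genes in all, 636 higher (2.74%) and 482 lower (2.08%). The treated and control rats overlapped for every member. Over all genes 2.73% had groups that did not overlap, a share at which a list of 31 genes can hold none. The member with the smallest p was Ccna2, with a treated minus control difference of -0.21 (SE 0.20, 95% interval -0.65 to 0.24, limma adjusted p = 0.981). Over the 31 members the adjusted p ran from 0.981 to 0.999.

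Small differences fell on both sides of 0. Lower in treated rats were 19 members and higher 12 (50.6% of all genes were lower), with a median difference of -0.04 against -0.0019 for all genes. That split turned on Control 103 and Telmisartan 302: without Control 103, 8 of 31 were lower (48.5% of all genes) and the median was 0.08, and without Telmisartan 302, 29 were lower (51.6%) and the median was -0.13. With both of these rats left out, an alternative chosen after the values were seen, 18 were lower and the median was -0.02. It also turned with the scaling: 12 of 31 were lower in the log ratios of the scanner software (48.3% of all genes), 15 after median centring (40.2%), 13 after scaling between arrays (50.2%) and 11 in the Cy5 channel alone (43.2%). Within slide 1 (Control 102 and 103, Telmisartan 302 and 303) the median member difference was -0.09, and within slide 2 (Control 104 and 106, Telmisartan 305 and 306) it was -0.0072.

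Among members with lower means in treated rats, Nusap1 differed by -0.16 (-0.57 to 0.24), Tpx2 by -0.12 (-0.44 to 0.20) and Kif20a by -0.10 (-0.36 to 0.15), with 95% intervals in brackets. The difference of Nusap1 was 0.36 in the log ratios of the scanner software, so its direction turned with the processing. In the other direction Ccnb2 differed by 0.12 (-0.20 to 0.43), Ttk by 0.10 (-0.38 to 0.58), Aurkb by 0.08 (-0.33 to 0.50) and Hmmr by 0.05 (-0.17 to 0.27). Every one of these intervals spans 0. Of the markers usually read in tumour sections, Mki67 differed by 0.06 (-0.26 to 0.37) and Top2a by 0.04 (-0.24 to 0.32). For Mki67 the treated ratio is a bound, and its difference was 0.32 in the log ratios of the scanner software. Of the regulators, Cdk1 differed by -0.13 (-0.60 to 0.34), Ccnb1 by -0.10 (-0.38 to 0.18), Plk1 by -0.12 (-0.51 to 0.27) and Foxm1 by 0.0012 (-0.32 to 0.32).

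These intervals say how large a change could have been missed in the loess ratios, and they do not cover the spread between ways of processing. All 31 lay within 1 on the log2 scale in either direction, that is within 2-fold, and 18 lay within 0.5. The widest belonged to Kif11, from -0.84 to 0.68, and the median interval reached 0.36 to either side. Under other ways of processing the difference of Kif11 ran from -1.19 to 1.12, beyond its interval. Reference spots of 5 members, Kif11 among them, were never well above background. That of Mki67 was so on 3 control arrays and no treated array, and that of Aurkb on 2 control arrays and 1 treated array. The processing pulls the ratios of dim spots toward 0, so for all of these members, Mki67 and Aurkb included, the intervals are not limits on a change. The median size of the member differences was 0.08, against a median range of 0.68 over the 8 rats. Control rats lay at positions 3 and 4 of each slide and treated rats at positions 1 and 2, so position and treatment cannot be told apart.

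**Figure D2:**
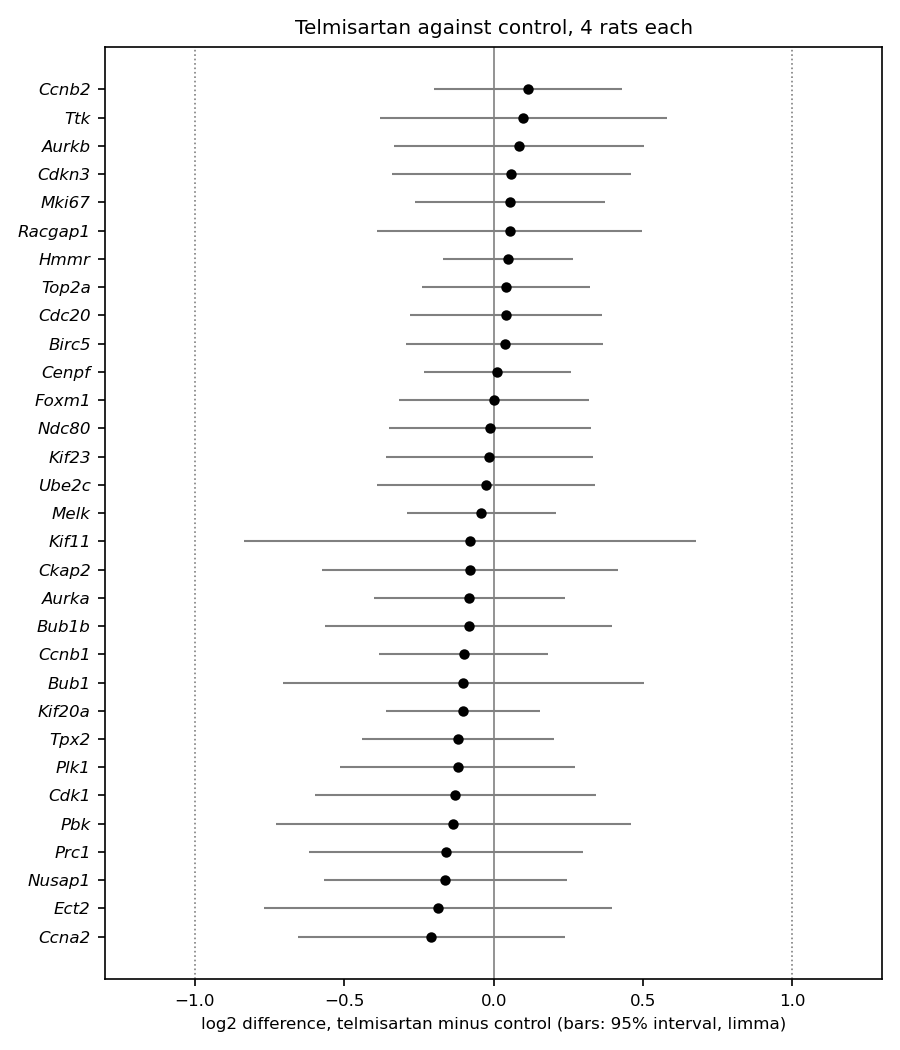
Treated minus control difference on the log2 scale (x axis) for each of the 31 members (y axis), with 95% intervals from limma as bars, 4 rats per group. All 31 bars cross the line at 0, and all stay inside the dotted lines at -1 and 1; the bar of Kif11 is the widest.

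By role, the median difference was -0.05 for the CDK1 engine (3 of 6 lower), -0.06 for the mitotic kinases (4 of 6), -0.03 for checkpoint and exit (3 of 5), 0.03 for chromosomes and kinetochores (1 of 4) and -0.09 for spindle and cytokinesis (8 of 10). Of the 12 second probes that passed, 7 were lower in treated rats, but most of the 12 had the opposite sign to the probe used. The second probes of Ccna2, Ccnb1, Ect2 and Kif11 were higher in treated rats, where the probe used was lower. Those of Top2a, Hmmr and Cenpf and both of Racgap1 were lower, where the probe used was higher. Only those of Bub1b, Plk1 and Ttk kept the sign. The second probe of Ccna2 stood at 3.12 ± 0.43 in treated and 2.99 ± 0.37 in control rats (SD, n = 4 each).

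Most members shared a difference between single rats of the same group. Control 103 was the highest control rat for 28 of 31 members (31.3% of all genes) and Telmisartan 302 the highest treated rat for 29 (32.8%); both held for 27 members (13.6%). Of all 8 rats, Control 103 was highest for 17 members and Telmisartan 302 for 12, together 29 of 31 (34.8%). These rats were singled out after their values were seen, so the counts are a description. The mean over the members was 3.37 in Control 103 and 3.31 in Telmisartan 302, and 2.78 to 2.95 in the other 6 rats. Against the other 3 rats of its group, the median member was 0.39 higher in Control 103 (29 of 31 above) and 0.40 higher in Telmisartan 302 (31 of 31), with the largest excess of 1.10 for Bub1 in Control 103. At the low end, Telmisartan 303 was the lowest treated rat for 21 members (24.9%).

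**Figure D3:**
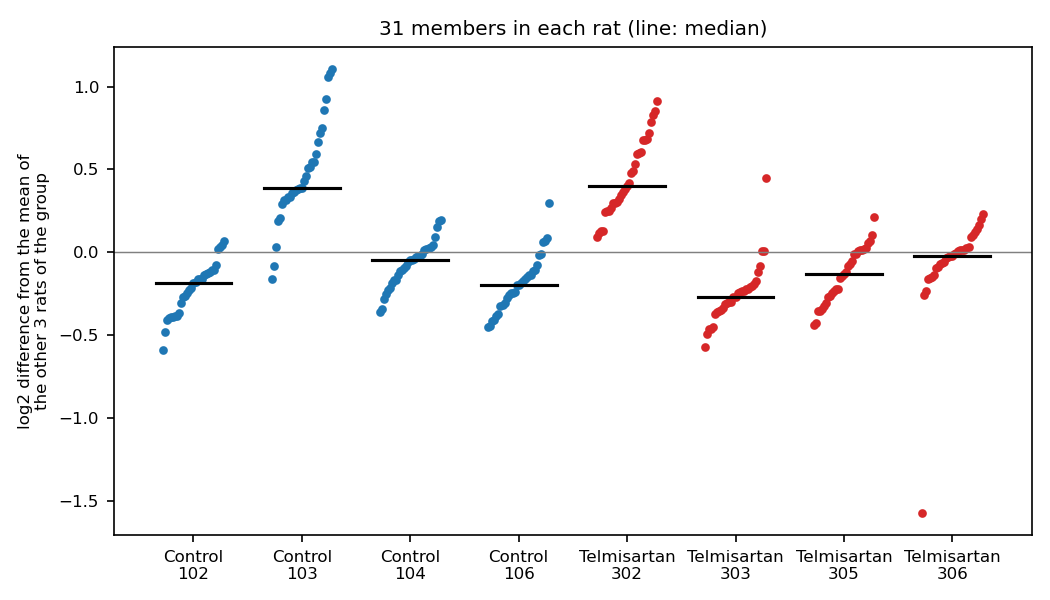
For each rat (x axis), the log2 difference of each of the 31 members from the mean of the other 3 rats of its group (y axis); points are members in rising order and black lines medians. The medians of Control 103 (0.39) and Telmisartan 302 (0.40) are the only ones above 0, and the lone point below -1.5 is Kif11 in Telmisartan 306.

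Across the 8 rats the members varied together. The mean correlation over the 465 pairs of members was 0.65, against 0.0014 for all genes, and 370 pairs were above 0.5. With each group's mean removed it was 0.674, against 0.0016. In the mean for all genes, pairs of opposite sign cancel, and no such mean is given for the other lists. It therefore does not show that varying together is particular to the members. These correlations rest on 8 arrays that share slides and a reference, and they carry no p. With the mean of the other members, 22 members correlated above 0.8, led by Ndc80 at 0.974 and Ckap2 at 0.972. The 3 members below 0.5 were Cenpf at -0.09, Hmmr at 0.12 and Kif11 at 0.35. The second probe of Cenpf, over a reference spot never well above background, was highest in Control 103, at 1.67, where the probe used was at 0.83. In Telmisartan 302 that second probe was at 1.20, below Telmisartan 303 at 1.41. Of the 12 second probes that passed, 11 were highest in Control 103 or Telmisartan 302 (34.8% of all genes), among them both second probes of Racgap1. The second probe of Hmmr was highest in Control 103, at 2.00. In Telmisartan 302 it was at 1.39, below Telmisartan 305 at 1.80 and Telmisartan 306 at 1.62.

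Both rats stood at the other end for lymphocyte genes. The mean of 11 T cell markers (of 13 listed) was 2.13, 0.55, 2.02 and 1.74 in Control 102, 103, 104 and 106 and 0.30, 0.95, 1.87 and 1.18 in Telmisartan 302, 303, 305 and 306. Control 103 and Telmisartan 302 were thus lowest of all rats for T cell markers and highest for the members. Cd3d, a subunit of the T cell receptor complex, measured 3.22, 0.65, 2.90 and 2.47 in control and 0.24, 1.29, 2.40 and 1.84 in treated rats. For 12 macrophage markers (of 13) the means were 1.66, 1.04, 1.51 and 1.71 in control and 0.51, 1.48, 1.61 and 1.13 in treated rats, and no T cell, B cell or macrophage marker was highest in either of these rats. Luminal epithelial markers did not set the pair apart: the mean of 12 (of 13) was 0.03, 0.37, 0.21 and 0.42 in control and -0.01, 0.29, 0.27 and 0.29 in treated rats. Between the groups, all 11 T cell markers had lower means in treated rats (median difference -0.56) and 10 of 12 macrophage markers did (median -0.38), with none past limma's adjusted threshold. In Control 103, 71.9% of spots were well above background in Cy5, and in Telmisartan 302 59.2%, the lowest of 8. The part of cell makeup and of array signal in the members' differences between rats was not tested.

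**Figure D4:**
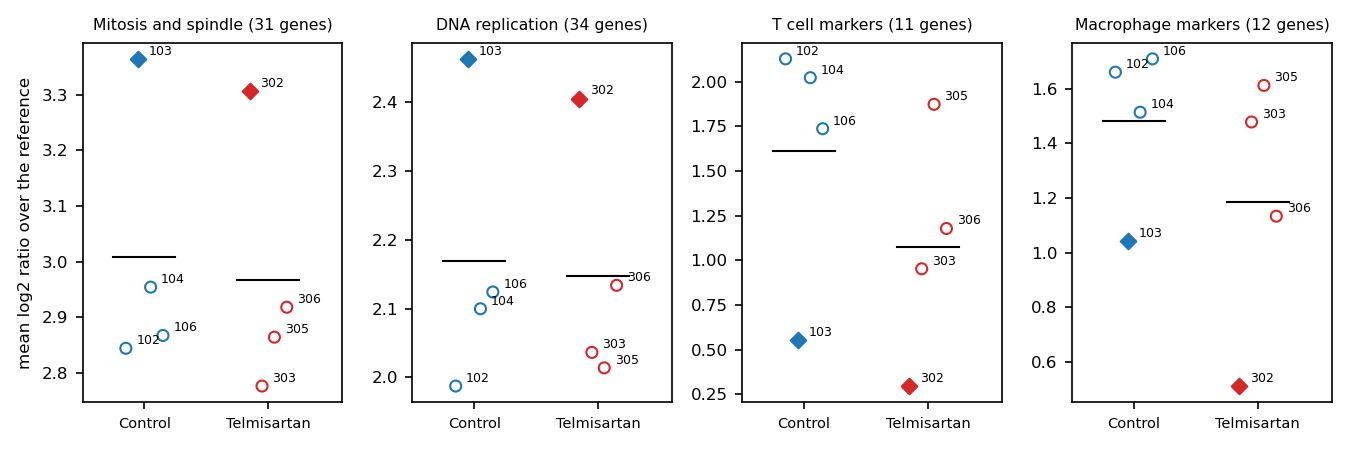
Mean log2 ratio over the reference (y axis, its own range in each panel) of 4 gene lists in each rat, labelled by rat number, with group means as black lines; filled diamonds are Control 103 and Telmisartan 302. These rats are highest in the panels of the 31 members and of 34 DNA replication genes and lowest in the panel of 11 T cell markers.

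The wider mitotic machinery was read from 5 further lists, and DNA replication from a sixth. For the counts of each list, the shares over all genes were 50.6% lower in treated rats and 34.8% highest in Control 103 or Telmisartan 302. Of the kinetochore and checkpoint list, 27 of 41 genes were measured, 15 of them lower in treated rats, and 22 (81.5%) were highest in Control 103 or Telmisartan 302. Cenpt, which anchors the kinetochore to the centromere, had the smallest p, 3.57 ± 0.22 in control rats and 3.18 ± 0.22 in treated rats, a difference of -0.39 (SE 0.14, unadjusted p = 0.0237, limma adjusted p = 0.981). Cenpu, of the inner kinetochore, differed by -0.41 (unadjusted p = 0.0501, limma). Farthest above the reference were Cenpk at 3.78 ± 0.47 and Kntc1, a checkpoint protein of the kinetochore, at 3.72 ± 0.48 in control rats. The reference spot was well above background on 2 of the 4 control arrays for Kntc1 and on none for Cenpu. None passed after adjustment.

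Of 26 measured spindle and midbody genes (30 listed), 13 were lower and 19 (73.1%) were highest in the same pair of rats. Aspm, which focuses spindle poles, stood at 4.56 ± 0.41 in control and 4.43 ± 0.47 in treated rats, and Spag5, also called astrin, at 3.72 ± 0.27 and 3.75 ± 0.27. The smallest p values were those of Kif14, a kinesin of cytokinesis, at 0.34 (unadjusted p = 0.0736, limma), whose Cy5 spot was not well above background in any treated rat, and Sass6, a centriole protein, at -0.25. The reference spots of Kif14 and Sass6 were not well above background on any array. For chromosome structure, 20 of 23 genes were measured, 13 were lower, and 17 (85%) were highest in those rats. Espl1, which encodes separase, stood at 3.46 ± 0.15 and Cdca2, a chromatin phosphatase subunit, at 3.21 ± 0.39 in control rats; the reference spot of Cdca2 was well above background on 1 of the 4 control arrays. The cohesin regulator Pds5b and the condensin subunit Ncapg differed by -0.21 and -0.17, that of Ncapg over a reference spot never well above background, and no gene of this list had an unadjusted p under 0.05.

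Among regulators of mitotic entry and exit, 27 of 31 genes were measured, 19 were lower and 18 (66.7%) were highest in Control 103 or Telmisartan 302. Gtse1, which restrains p53 late in the cell cycle, averaged 2.22 ± 0.18 in control rats and 1.79 ± 0.21 in treated rats, a difference of -0.43 (SE 0.13, unadjusted p = 0.00914, limma adjusted p = 0.944). Its reference spot was well above background on 2 control and 4 treated arrays. Its groups overlapped through Telmisartan 302, at 2.0790 against 2.0755 in Control 104. Cdc14a, a phosphatase of mitotic exit, differed by 0.29 and Pkmyt1, an inhibitory kinase of CDK1, by -0.03. Of the 16 measured MuvB and E2F regulators (21 listed), 10 were lower and 9 were highest in those rats. Tfdp2, a dimer partner of E2F factors, was below the reference in all rats and higher in treated rats without overlap, -1.58 ± 0.12 against -1.20 ± 0.20 (difference 0.38, unadjusted p = 0.0107, limma adjusted p = 0.950). E2f6, a repressor of the family, differed by 0.22. E2f8 and E2f1 stood at 4.76 ± 0.41 and 2.85 ± 0.22 in control rats and differed by -0.18 and -0.05.

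Genes of DNA replication, the phase before mitosis, were also high over the reference. Of 34 measured (36 listed), 31 were above 2-fold in all 4 control rats (5.19% of all genes). In treated rats 21 were lower (50.6% of all genes), with a median difference of -0.04. Highest in Control 103 or Telmisartan 302 were 31 (91.2%, against 34.8% of all genes). Their mean was 2.46 in Control 103 and 2.41 in Telmisartan 302, and 1.99 to 2.13 in the other rats. Rrm2, a subunit of ribonucleotide reductase, stood at 4.19 ± 0.13 and 4.04 ± 0.38 in control and treated rats, and the helicase subunit Mcm6 at 3.76 ± 0.17 and 3.72 ± 0.20. Mcm5, of the same helicase, differed by 0.22, with the smallest p of the list at 0.245 unadjusted in limma, over a reference spot never well above background. No difference between the replication and mitosis genes was tested.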

How the data were processed

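Ventral prostate RNA of 8 TRAP rats, 4 control and 4 telmisartan, was measured on 2-colour Agilent arrays on 2 slides, with 2 rats of each group per slide. ISOGEN was used for extraction and a linear amplification kit for labelling, per the labels' protocols. The sources used here do not say whether the reference was 1 pool. Per the submitters' processing notes, images were read with Agilent Feature Extraction 9.1. The deposited files give mean spot intensity and median local background intensity per channel, uncorrected, and log10 ratios that the software had background-subtracted and dye-normalized. The deposited series matrix held these log10 ratios, which agreed row by row to within 0.005, in the same direction, Cy5 over Cy3.

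Intensities were corrected with normexp (offset 50) and normalized by loess within arrays in limma 3.58.1 (R 4.3.3). Control spots had weight 0 and, with outlier spots, were left out. The 41012 probes were filtered as the report states; probes with a value on all 8 arrays were tested, and the probe with the highest mean signal stood for its gene, which left 23208 genes. Groups were compared on log2 ratios with lmFit and eBayes, two-sided, and p was adjusted over all genes by Benjamini-Hochberg, at 0.05. The offset pulls the ratios of dim spots toward 0. Names came from RefSeq gene tables (GRCr8): 10726 probes matched by accession, 5580 by symbol, 3729 by synonym and 20977 kept the file's name. On simulated data of this comparison with 23208 genes, 84% of genes changed by 1 on the log2 scale and 99% of those changed by 2 were recovered, with 13 false calls. The changed genes were picked at random and the noise was independent between genes, whereas the members vary together. Well above background were 59.2% to 76.8% of spots in Cy5 and 48.2% to 52.6% in Cy3, and arrays correlated at 0.829 to 0.963. The number of arrays limits the precision.

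Members and lists were chosen with earlier results of these data known. All members are named; values per rat are given for the 4 with the smallest p in each direction, the 4 highest and 4 lowest measured ratios, and Mki67, Top2a, Cdk1, Ccnb1, Plk1, Aurkb and Foxm1. Of each pathway list, the 2 genes with the smallest p and the 2 farthest from the reference are named, and of the T cell list the gene with the highest signal. Of the DNA replication list, 1 gene this rule names is not reported here. Bub1 per rat, Sbp, Azgp1 and the counts of Control 103 and Telmisartan 302 were chosen after their values were seen.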

Additional observations from a re-analysis of the deposited data

Results flagged for a closer look

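In groups of 4 rats, a rat was marked where its gap to the nearest other rat took up most of the range of the group (Dixon's test at 95%). Of 62 groups (31 members in control and in treated rats), 9 were marked, in 8 members; chance marks about 1 in 20 groups, and over all genes 6.18% of control groups and 5.81% of treated groups were. All 9 marks were high values, 7 of them in Control 103 and 2 in Telmisartan 302. In Control 103 they were Ect2 at 5.41 (other control rats 4.29 to 4.45), Bub1 at 4.52 (3.40 to 3.43), Bub1b at 4.34 (3.71 to 3.81), Cdkn3 at 4.06 (3.29 to 3.35), Ccnb1 at 3.63 (3.23 to 3.29), Ttk at 3.32 (2.54 to 2.64) and Foxm1 at 2.99 (2.67 to 2.69). In Telmisartan 302 they were Ckap2 at 5.43 (other treated rats 4.82 to 4.87) and Bub1b at 4.43 (3.54 to 3.63). Bub1b, the checkpoint gene of BUBR1, was the member marked in both groups. The members vary together, so these marks are not independent of each other.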

How the results depend on the processing

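No member was called under any of the 23 alternatives, and 62 of 459 values of the 20 members named with full values changed sign, in 17 of these members, with no adjusted p below 0.523. The count of genes called was 0 in all but the fits that left out Control 102 or Telmisartan 303; leaving out each rat in turn it ran from 0 to 1, the called features being the accession-named BI289714 (1.48) and AI045810 (-2.02). The count of members lower in treated rats was 11 in Cy5 alone, 12 in the scanner's log ratios and 12 in the series matrix, and ran from 8 to 29 with each rat left out; the median level over the reference in control rats was 4.087 with median centring (which moved the median of all genes by 0.607), 3.396 with offset 0, 3.714 in the scanner's ratios and 3.718 in the series matrix. Members highest in Control 103 or Telmisartan 302 numbered 23 to 31 over 9 alternatives with all 8 arrays. The share of all genes, 34.8% in the main setting, is not given for these alternatives, so the numbers cannot be set against it. An unadjusted p under 0.05 in limma was reached by Ccna2 and Prc1 without Telmisartan 302, by Prc1 without that rat and Control 103 and by Kif11 at offset 0. Over all genes, 1464 of 23219, 2204 of 23222 and 1233 of 23208 reached it in these fits, in the same order. Such numbers of members are therefore no result about the members.

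Signs changed as follows, all uncalled, and the cause was not tested. In Cy5 alone: Tpx2 0.11, Hmmr -0.07, Cdk1 0.02, Aurka 0.0049, Mki67 -0.03 and Ccnb1 0.07. With array weights: Cenpf -0.01 and Foxm1 -0.00018. With the mean of probes: Hmmr -0.05, Cenpf -0.03, Kif11 0.1 and Top2a -0.01. With median centring: Hmmr -0.0087 and Ckap2 0.0015; with scaling between arrays: Ckap2 0.02. At offset 0: Cenpf -0.22 and Kif11 1.12. In the scanner's ratios: Nusap1 0.36, Hmmr -0.02, Ckap2 0.02, Pbk 0.04 and Aurka 0.02; in the series matrix: Nusap1 0.36, Hmmr -0.02, Ckap2 0.02, Pbk 0.05 and Aurka 0.02. In slide 1: Kif11 0.33, Aurka 0.05, Mki67 -0.06, Top2a -0.03 and Foxm1 -0.02. In slide 2: Hmmr -0.1, Aurkb -0.04, Cenpf -0.04, Ccnb1 0.0036 and Plk1 0.04. With Control 103 and Telmisartan 302 both left out, chosen after seeing the data: Aurkb -0.06, Cdk1 0.04, Cenpf -0.05 and Foxm1 -0.04. With each rat left out, Cenpf ran from -0.03 to 0.09, Foxm1 from -0.12 to 0.09, Ckap2 from -0.23 to 0.13, Ect2 from -0.36 to 0.08, Cdk1 from -0.25 to 0.1, Pbk from -0.28 to 0.14, Kif11 from -0.31 to 0.31, Plk1 from -0.22 to 0.05, Mki67 from -0.03 to 0.17, Ttk from -0.07 to 0.28, Aurkb from -0.11 to 0.2, Top2a from -0.03 to 0.13 and Aurka from -0.22 to 0.0085.

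No paired analysis was possible because control and treated rats share no replicate number. With slide as a block, 0 genes passed and 1413 had an unadjusted p under 0.05. Reference spots of 5 members were never well above background, which limits their ratios to bounds.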

Other observations

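Other tissue compartments were read in the same rats. The mean log2 ratio of 8 basal epithelial markers ran from -1.20 to -0.42 in control and -0.79 to -0.30 in treated rats, and was lowest of all in Control 103. For 12 fibroblast markers it ran from -0.54 to -0.41 in control and -0.84 to -0.34 in treated rats, for 8 smooth muscle markers from -1.41 to -0.89 and -1.13 to -0.77, for 10 endothelial markers from -0.68 to -0.27 and -0.68 to -0.23, and for 4 B cell markers from 0.08 to 0.66 and 0.01 to 0.88. Endothelial markers were lowest in Control 103 among control rats and in Telmisartan 302 among treated rats, as were the B cell markers.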
